A study of Mus musculus with 12 samples.

Results

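The question here was whether the effect of LBH589 (panobinostat, an inhibitor of histone deacetylases) on mouse medulloblastoma cells differed between 6 h and 12 h of exposure. For each tumour the difference between LBH589 and DMSO at 12 h was taken, and the same difference at 6 h was subtracted from it. The result is called the interaction below and is a difference of log2 values. It was computed for all 23521 probe sets that name exactly 1 gene, out of 41345 in the deposited value table, and 19259 of them were bright enough to be tested. A negative interaction means that the gene stood lower against its solvent control at 12 h than at 6 h. It can arise because the gene moved with time in the DMSO cultures, or because it moved with time under LBH589. Both time courses were therefore fitted for every probe set tested. For some genes below only the interaction or 1 of the courses is printed.

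The cells, named MP, model MYC-driven Group 3 medulloblastoma, a tumour of the cerebellum, and were grown out of tumours in the cerebella of NSG mice, a strain that lacks T, B and NK lymphocytes. The mice keep macrophages and neutrophils of their own. Dissociated cells from 3 tumours (MP525, MP567, MP570) were plated in a neural stem cell medium. The 4 groups were DMSO for 6 h, DMSO for 12 h, LBH589 for 6 h and LBH589 for 12 h. LBH589 was used at 25 nM and DMSO, the solvent, at 0.00025%, and each tumour gave 1 array in each group, 12 arrays in all. The study asked how histone deacetylase inhibition harms such cells. Untreated cultures and cultures lysed at plating are not analysed here, so the DMSO course is that of solvent-treated cells after plating. The labels give no age for the mice and do not say whether the 4 cultures of a tumour were plated together. The p-values measure how far differences between groups varied among these 3 tumours once each tumour's own level was removed.

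Histone deacetylases remove acetyl groups from histones and from many other proteins, and inhibitors such as panobinostat change the transcription of a large share of genes within hours. Cells that sense foreign or misplaced nucleic acid release interferon, which acts through JAK kinases and transcription factors such as IRF9 on promoters that carry an interferon-stimulated response element. Freshly plated cells also adapt to the amino acids of their medium through the factor ATF4, and dividing cells pass through replication and mitosis with a wave of transcripts for each.

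Promoter sequences are shown because a known short sequence was searched for near gene starts. It was present in 14 of the 34 genes that rose in DMSO and have a promoter in the table. The sequence belongs to interferon promoters and interferon genes are among those that rose, so the count is a description. The 6 shown are among the genes that rose and hold a match. They come from RefSeq (GRCm38.p6), are written 5′ to 3′ on the gene's strand, and end at the base before the transcript start unless stated otherwise. Capitals mark matches to GAAANNGAAA, the core of the interferon-stimulated response element, on either strand, where 2 matches may overlap. Irgm1, Irgm2, Igtp, Gbp3 and Gbp7 encode interferon-induced GTPases, and Ddx58 encodes RIG-I, a cytosolic sensor of viral RNA. The Ddx58 stretch holds 15 bases before and 15 bases after the start.
Irgm1, chr11:48871421-48871480, minus strand: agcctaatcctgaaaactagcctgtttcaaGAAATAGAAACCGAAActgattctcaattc
Irgm2, chr11:58214897-58214976, plus strand: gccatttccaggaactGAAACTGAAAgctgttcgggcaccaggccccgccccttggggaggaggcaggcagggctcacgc
Igtp, chr11:58199496-58199555, plus strand: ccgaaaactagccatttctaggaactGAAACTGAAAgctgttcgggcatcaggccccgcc
Gbp3, chr3:142559964-142560043, plus strand: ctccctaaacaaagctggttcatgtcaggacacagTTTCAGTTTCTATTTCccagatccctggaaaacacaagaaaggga
Gbp7, chr3:142530256-142530335, plus strand: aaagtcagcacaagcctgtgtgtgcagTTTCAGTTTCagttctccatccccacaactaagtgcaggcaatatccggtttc
Ddx58, chr4:40239811-40239840, minus strand: ccagcgccctgaggcagTTTCGATTTCcta

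In windows of 300 bases, from 250 before the start to 50 after it, 3.99% of the 27025 genes in the RefSeq table and 3.37% of the 14049 tested genes in it held at least 1 match. Of the 40 genes that rose in DMSO from 6 h to 12 h, 34 were in the table and 14 of them (41.2%) held a match. None of the 11 genes in the table that fell in DMSO did. Among genes that rose or fell with time under LBH589 the shares were 6.38% of 94 and 3.26% of 184. The window of Rnf213, the gene with the lowest p for the interaction, held no match. A match describes the letters only and does not show that a factor binds there.

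The interaction passed the test for 2 of 19259 probe sets (0.0104%), Rnf213 and Ddx58, and both were negative. The test is limma's moderated test with the tumour as a block, two-sided, with Benjamini-Hochberg adjustment over all 19259, and "rose", "fell" and "passed" below mean an adjusted p under 0.05 in it. For Rnf213 and Ddx58 the lower value at 12 h came from the DMSO cultures, where both genes rose, while their change under LBH589 did not pass. No probe set passed with a higher effect at 12 h (0 of 19259, 0%). At an unadjusted p under 0.05 there were 1791 (9.3% of those tested), 775 higher (4.02%) and 1016 lower (5.28%). The interaction has a median standard error of 0.15, so its 95% interval typically reached 0.32 to either side, and the smallest interaction that passed was 1.68 in size. That size is not a limit of detection, since passing depended on the standard error as well. An interaction of -2.14 ± 0.36 did not pass, and with quantile normalization an interaction of 0.86 did. Smaller differences between the times may have been missed with 3 tumours.

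Rnf213 encodes a very large ubiquitin ligase and ATPase that is induced by interferon. In this paragraph and below, values are deposited log2 values in the order MP525, MP567 and MP570. In DMSO its values were 8.17, 7.87 and 8.08 at 6 h and 10.28, 9.92 and 10.84 at 12 h. In LBH589 they were 8.12, 8.01 and 8.32 at 6 h and 8.38, 8.32 and 8.47 at 12 h. The 3 DMSO arrays at 12 h stood above all 9 other arrays, which lay close together. Rnf213 thus rose by 2.31 ± 0.13 (SE, n = 3 tumours) in DMSO, which is 4.95-fold (limma adjusted p = 2.529e-06), against 0.24 ± 0.13 in LBH589 (adjusted p = 0.348). The interaction was -2.07 ± 0.19 (limma adjusted p = 0.00079), and it was -1.85, -1.73 and -2.61 in the tumours taken singly. The LBH589 effect was 0.11 at 6 h, which did not pass, and -1.96 at 12 h, which did.

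Ddx58 values in DMSO were 7.76, 8.12 and 7.89 at 6 h and 9.92, 9.64 and 10.21 at 12 h. In LBH589 they were 7.28, 7.34 and 7.23 at 6 h and 7.70, 7.66 and 7.46 at 12 h. The DMSO arrays at 12 h were again the highest, and the LBH589 arrays at both times lay below every DMSO array. Ddx58 rose by 2.003 ± 0.14 in DMSO (4.01-fold, limma adjusted p = 1.625e-05) and its change in LBH589 was 0.32 ± 0.14 (adjusted p = 0.243). The interaction was -1.68 ± 0.20 (limma adjusted p = 0.00891), and it was -1.75, -1.20 and -2.09 by tumour. LBH589 already lowered Ddx58 at 6 h, by -0.63, and the difference was -2.32 at 12 h. Both calls depended on the tumours entering the fit. Without MP525 neither passed (adjusted p = 0.123 for Rnf213 and 0.305 for Ddx58), and Ddx58 also missed the threshold without MP570 (0.290), without the LBH589 6 h array of MP525 (0.0567) and without the LBH589 12 h array of MP570 (0.0638). With no tumour block, neither passed (0.0893 and 0.0822).

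**Figure D1:**
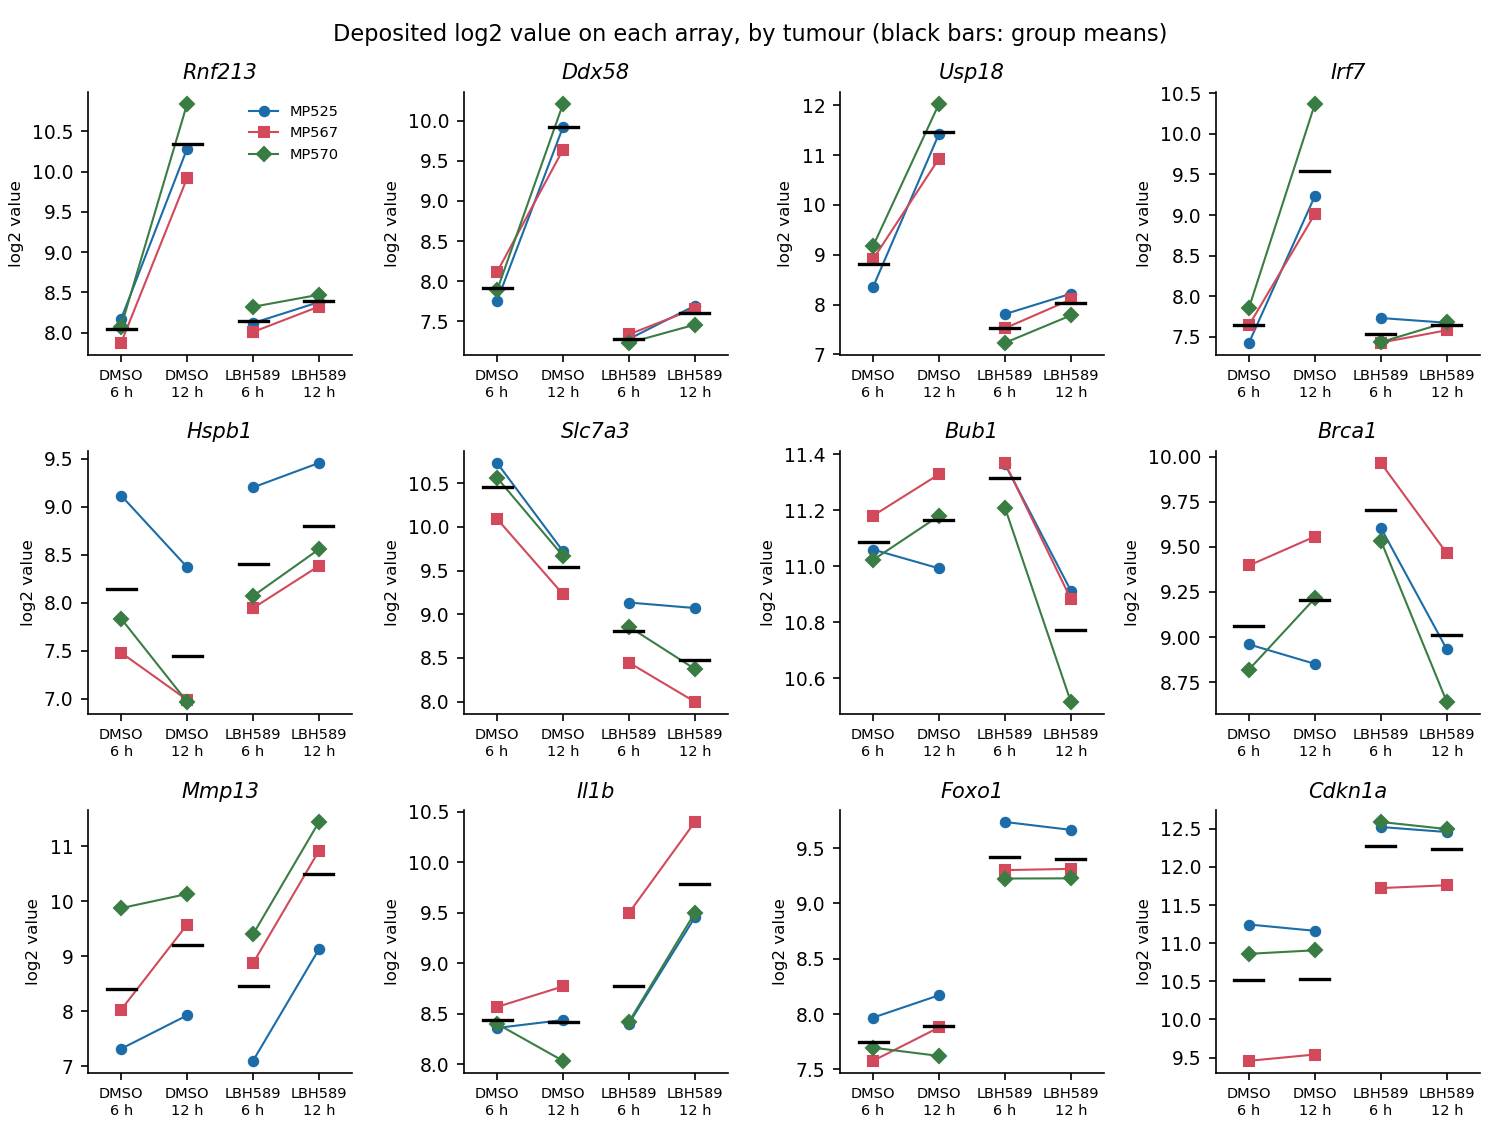
Deposited log2 value (vertical axis) of 12 genes on each of the 12 arrays, by treatment and time (horizontal axis). Points are arrays, colours and shapes are tumours, lines join the 2 times of a tumour within a treatment, and black bars are group means. Rnf213, Ddx58, Usp18 and Irf7 climb in DMSO and stay low in LBH589, Bub1 and Brca1 drop in LBH589 in every tumour, and Foxo1 and Cdkn1a sit at a higher, level value in LBH589.

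Further interferon genes rose in DMSO with a large negative interaction that did not pass on its own. Genes named from here on were chosen after their values were seen, unless they are among the 5 always named (Foxo1, Cdkn1a, Bcl2l11, Ccnd1 and Myc). Usp18, which removes the ubiquitin-like protein ISG15 and restrains interferon signalling, had the interaction of the largest size. Its DMSO values were 8.35, 8.91 and 9.17 at 6 h and 11.43, 10.93 and 12.03 at 12 h, and its LBH589 values were 7.81, 7.53 and 7.23, then 8.22, 8.10 and 7.78. It rose by 2.65 in DMSO (6.27-fold), and its interaction of -2.14 ± 0.36 (95% interval -2.90 to -1.37) had a limma adjusted p of 0.0895. Irf7, the factor that amplifies type I interferon production, stood at 7.43, 7.64 and 7.86 in DMSO at 6 h and at 9.23, 9.01 and 10.37 at 12 h. In LBH589 Irf7 ranged only from 7.43 to 7.73 over both times, and its interaction was -1.78 ± 0.31 (limma adjusted p = 0.0947). For both genes the DMSO arrays at 12 h stood apart from the other 9, as they did for Rnf213.

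Irf9, a DNA-binding factor of the interferon response, rose by 1.08 in DMSO, and its change in LBH589 was -0.17 (interaction -1.24, limma adjusted p = 0.0947). Eif2ak2, the RNA-activated kinase PKR that stops translation, rose by 1.996 in DMSO (interaction -1.59, adjusted p = 0.123), and Parp12, an antiviral ADP-ribosyltransferase, by 2.20 (interaction -1.57, adjusted p = 0.138). The oligoadenylate synthetase-like genes Oasl1 and Oasl2 rose by 1.67 and 1.69, with interactions of -1.30 and -1.02. Trim25, the ubiquitin ligase that activates RIG-I, rose by 1.43, and Mx2, a dynamin-like antiviral GTPase, by 0.94 (interactions -1.08 and -1.01). Of the GTPases whose promoters are shown above, Irgm1 rose by 1.78, Igtp by 1.89, Irgm2 by 1.56, Gbp7 by 1.14 and Gbp3 by 0.97. Their interactions were -1.62, -1.24, -1.27, -0.74 and -0.67, none of which passed. The time change of these genes in LBH589 lay between -0.17 and 0.67 and passed for none of them. Mx2 lay above the 25th percentile of all probe sets on 1 DMSO array at 6 h, 3 at 12 h and 0 LBH589 arrays at either time. Gbp3 did so on 2 DMSO arrays at 6 h and 3 at 12 h, and on 0 and 1 LBH589 arrays. Their means of 6.05 and 6.21 passed the low value filter of 6.00 largely through DMSO at 12 h, so their small LBH589 change says little.

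Not every interferon gene shared this pattern. Rsad2, which encodes viperin, rose by 0.99 in DMSO and was 0.71 higher at 12 h in LBH589, a change that did not pass, and its interaction was -0.28 (95% interval -0.84 to 0.29). Sp100, a nuclear body protein, rose in both, by 0.53 and 0.50 (interaction -0.03). Isg15 and Ifit1, commonly used interferon markers, had DMSO changes of 0.50 and 0.58 that did not pass, and interactions of -0.23 and -0.26. A pair of probe sets disagreed for Ifi35 (interactions of -0.86 and -0.14) and for Lgals3bp (-0.86 and 0.00), and the brighter of the pair is the one counted.

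Over the list of interferon-induced effector genes, 38 were tested and all 38 interactions lay below 0, with a median of -0.41 against 0.00 over all probe sets tested. None passed, and 18 were lower at an unadjusted p under 0.05, beside 5.28% of all probe sets. In DMSO 16 of the 38 rose and 0 fell, beside 0.208% of all probe sets that rose (40), 0.0883% that fell (17) and 0.296% in all (57). In LBH589 2 of them rose, Sp100 and Cmpk2, beside 0.582% of all probe sets (112). The median change in DMSO was 0.71, 0.61 and 0.81 in MP525, MP567 and MP570, and in LBH589 it was 0.26, 0.17 and 0.34. For the 8 tested interferon-induced GTPases the median interaction was -0.71, with 5 lower at an unadjusted p under 0.05, and 5 rose in DMSO and 0 in LBH589. Their median interaction was -0.56, -0.24 and -1.08 by tumour, so it was smallest in MP567. LBH589 already lowered 10 of the 38 effector genes at 6 h and raised 1, beside 15.9% and 17.7% of all probe sets. At 12 h it lowered 31 and raised 1, beside 18.3% and 18.5%. Of the 8 GTPases, 6 were lower in LBH589 than in DMSO at 6 h and 8 at 12 h, and 0 were higher.

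The genes that make or relay the signal moved less. Of 19 interferon, receptor, JAK-STAT and IRF genes, Irf7 and Irf9 rose in DMSO, none changed in LBH589, and the median interaction was -0.11. Stat2, the partner of IRF9, had an interaction of -0.56 that did not pass. Of 14 genes that sense nucleic acid, Ddx58 and Ifih1, which encodes the RNA sensor MDA5, rose in DMSO (2.003 and 0.95), and Ddx58 alone had an interaction that passed. Dhx58, a regulator of both sensors, and Mavs, their shared adaptor, had interactions of -0.27 and -0.25. Of 16 genes of MHC class I presentation, 2 rose in DMSO and 1 in LBH589, beside 0.208% and 0.582% of all probe sets. Their median interaction was -0.05.

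Markers of other cell types were read on the same arrays. Of 13 microglia and macrophage markers, 12 lay above the 25th percentile of all probe sets on every array, among them Cx3cr1, Cd68 and C1qb. Their mean log2 value in DMSO was 7.66, 7.57 and 7.62 at 6 h and 7.68, 7.94 and 7.39 at 12 h. In LBH589 it was 7.52, 7.63 and 7.48, then 7.56, 7.73 and 7.73. In DMSO the microglial mean was higher at 12 h in MP567 and lower in MP570, and none of the 13 genes passed in either course. Of 7 lymphocyte and 6 neutrophil markers on the array, 5 and 4 were above that percentile on every array, and Klrb1c, a marker of NK cells, and Ly6g, one of neutrophils, were above it on none. The part of such cells in the rise of the interferon genes was not tested. Neural progenitor and granule neuron lineage markers (8 and 7 genes) were above it on every array. So were those of mature neurons (7), astrocytes (5), oligodendrocytes (4) and endothelial cells (6), so this level does not tell these cell types apart. By their mean over the arrays, 10 of the 13 microglia and macrophage markers lay above the median probe set. Of the lymphocyte and neutrophil markers, 0 of 7 and 1 of 6 did. In bulk RNA, more cells of a type and more RNA per cell cannot be told apart.

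The time course in DMSO as a whole held 57 probe sets, of which 2 had an interaction that passed. They were chosen by their DMSO change, which enters the interaction, so the sizes that follow are a description. The 40 that rose had a median DMSO change of 1.04 and a median LBH589 change, measured on other arrays, of 0.30. The 17 that fell had medians of -0.58 and -0.21. In 44 of the 57 the DMSO change was at least 2 times the LBH589 change in size, and 6 passed in LBH589 as well, all in the same direction. Leaving out a tumour reduced the number called to 13 (without MP525), 37 (MP567) and 15 (MP570). Leaving out 1 array gave 20 and 30 without the 6 h and 12 h DMSO arrays of MP525, 37 without that of MP567 at 6 h, and 16 without either DMSO array of MP570. Rnf213, Ddx58, Usp18, Irf7, Eif2ak2 and Parp12 were the 6 that kept their call in DMSO without each tumour and each array.

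**Figure D2:**
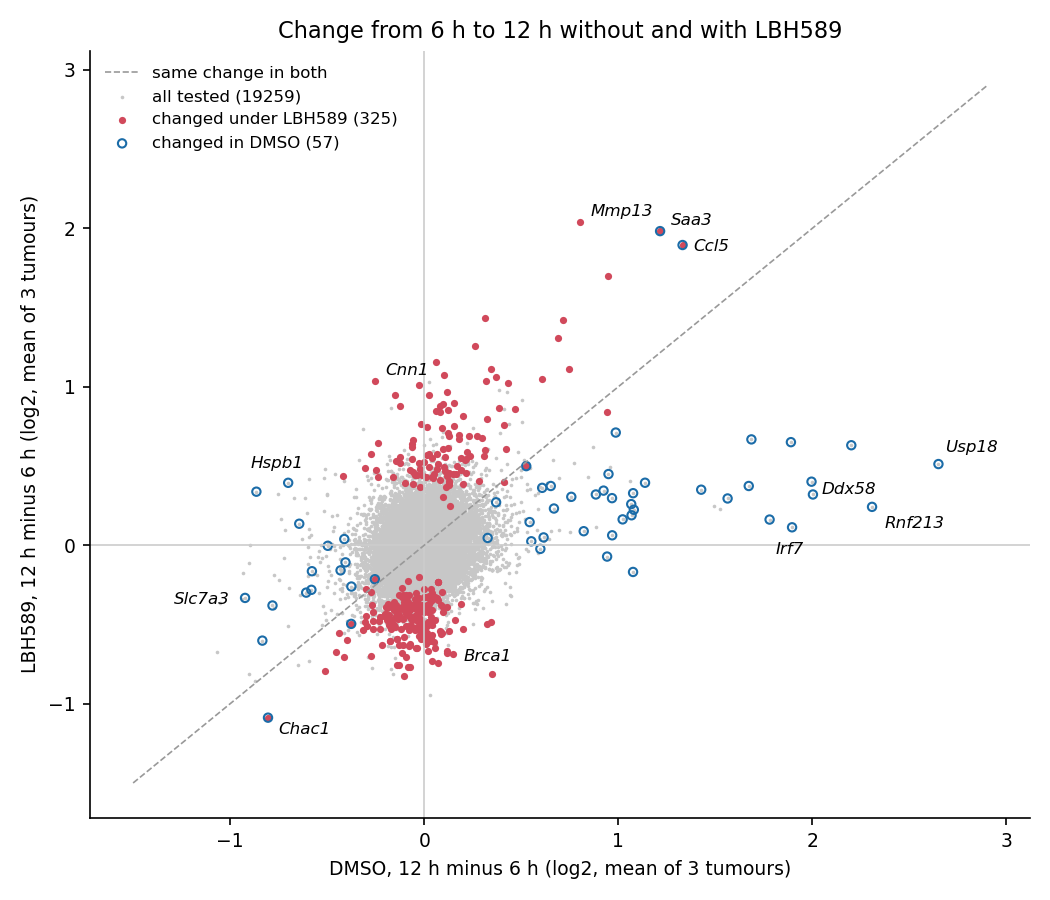
Change from 6 h to 12 h in DMSO (horizontal axis) against that in LBH589 (vertical axis), in log2 units, as the mean of 3 tumours, for 19259 probe sets. Open circles changed in DMSO (57), filled red points changed in LBH589 (325), and distance from the dashed line is the interaction. Interferon genes lie to the right near the horizontal axis, and Mmp13, Saa3 and Ccl5 lie above the line.

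Genes of amino acid supply were among those that fell in DMSO. The ATF4 and amino acid response list had 22 tested genes, of which 5 fell and 0 rose in DMSO, while 2 fell and 1 rose in LBH589. Over all probe sets 0.0883% fell and 0.208% rose in DMSO, and 1.11% fell and 0.582% rose in LBH589. The list's median interaction was 0.08, with 4 genes higher at an unadjusted p under 0.05 (4.02% of all probe sets) and none that passed. Slc7a3, a transporter of arginine and lysine, had DMSO values of 10.73, 10.09 and 10.56 at 6 h and 9.72, 9.23 and 9.67 at 12 h. In LBH589 it stood at 9.13, 8.45 and 8.86, then at 9.07, 7.997 and 8.37. It was lower in LBH589 than in DMSO at 6 h by -1.65 and at 12 h by -1.06, and the interaction was 0.59 ± 0.16 (limma adjusted p = 0.285). In each tumour the LBH589 array was below the DMSO array at both times.

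Psph, the last enzyme of serine synthesis, was at 9.70, 9.93 and 9.75 in DMSO at 6 h and at 9.29, 9.46 and 9.14 at 12 h. In LBH589 it was at 9.40, 9.51 and 9.26, then at 9.57, 9.44 and 9.15. The DMSO fall of Psph, -0.50, had a limma adjusted p of 0.0492. That call was kept in 0 of 3 fits without a tumour and in 1 of 12 without an array. Its LBH589 effect was -0.40 at 6 h and 0.09 at 12 h, with an interaction of 0.49 ± 0.13 (limma adjusted p = 0.285). Further genes, some of them outside the list, fell too. The tRNA synthetase genes Tars, Yars and Cars fell in DMSO by -0.41, -0.43 and -0.58, and had interactions of 0.45, 0.27 and 0.30 that did not pass. Eif4ebp1, a brake on translation, and Gpt2, an alanine aminotransferase, fell by -0.41 and -0.61. Chac1, which degrades glutathione, fell in both courses, by -0.80 and -1.09, and Slc7a5, the large neutral amino acid transporter, by -0.25 and -0.21. Asns, asparagine synthetase, had an interaction of 0.06.

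A second sequence was searched in the same windows, TGATGNAA, the core of the element that C/EBP and ATF4 bind, on both strands. It was held by 3.15% of the tested genes in the table and by 4 of 11 (36.4%) of the genes in it that fell in DMSO, Chac1, Yars, Slc1a4 and Tars. The stretches below show the match in capitals in Chac1, which fell in both courses, and in Tars, which fell in DMSO alone. The matches begin 193 bases (Chac1) and 15 bases (Tars) before the start.
Chac1, chr2:119351033-119351072, plus strand: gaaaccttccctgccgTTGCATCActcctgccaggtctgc
Tars, chr15:11399659-11399698, minus strand: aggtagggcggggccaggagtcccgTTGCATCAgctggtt

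Hspb1 and Rny1 also fell in DMSO, and Hspb1 had the lowest adjusted p among positive interactions. Hspb1 encodes the small heat shock protein HSP27. Its DMSO values were 9.12, 7.48 and 7.84 at 6 h and 8.37, 6.99 and 6.97 at 12 h, and in LBH589 they were 9.20, 7.95 and 8.07, then 9.46, 8.38 and 8.56. Every tumour moved down in DMSO and up in LBH589, although the tumours differed in level by more than either change. The interaction was 1.09 ± 0.16 (limma adjusted p = 0.0652), with a DMSO fall of -0.70 and an LBH589 change of 0.39 that did not pass. The second Hspb1 probe set had an interaction of 0.28. Rny1, a small RNA bound by the Ro protein, fell by -0.86 in DMSO and had an interaction of 1.20 ± 0.20 (limma adjusted p = 0.0895). With quantile normalization the interactions of both passed.

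Under LBH589 itself, 325 probe sets (1.69%) changed from 6 h to 12 h, 112 upward (0.582%) and 213 downward (1.11%), and none of them had an interaction that passed. The 112 that rose had a median LBH589 change of 0.57 and a median DMSO change of 0.11, and the 213 that fell had medians of -0.45 and -0.06. Again as a description of probe sets chosen by 1 of the courses, in 279 of the 325 the LBH589 change was at least 2 times the DMSO change in size. This count rested on single arrays more than the others. It was 14, 83 and 7 without MP525, MP567 and MP570, and 10, 67 and 11 without their LBH589 arrays at 6 h. It was 821 without the LBH589 12 h array of MP525 and 23 without that of MP570. Mmp13, Saa3 and Ccl5 were the 3 that kept their call without each tumour and each array.

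Some cell division genes fell under LBH589. Of 26 mitosis and G2/M genes tested, 13 fell in LBH589 and 0 changed in DMSO, beside 1.11% and 0.296% of all probe sets. The median interaction was -0.39, and 25 lay below 0. At an unadjusted p under 0.05, 19 were lower, beside 5.28% of all probe sets, and none passed. The median was -0.31, -0.33 and -0.46 by tumour. At 6 h, 11 of the 26 were lower in LBH589 than in DMSO and 2 higher, beside 15.9% and 17.7% of all probe sets. At 12 h 23 were lower and 0 higher, beside 18.3% and 18.5%. These 2 counts share no array, but their difference as a whole was not tested.

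Bub1, a kinase of the spindle checkpoint, had DMSO values of 11.06, 11.18 and 11.02 at 6 h and 10.99, 11.33 and 11.18 at 12 h. In LBH589 they were 11.36, 11.37 and 11.21 at 6 h and 10.91, 10.88 and 10.52 at 12 h. Within each tumour the LBH589 array was the highest of the 4 at 6 h and the lowest at 12 h. The interaction was -0.62 ± 0.13 (limma adjusted p = 0.190), from an LBH589 effect of 0.23 that did not pass at 6 h to one of -0.40 that did at 12 h. Ttk, another checkpoint kinase, Cenpe, a kinetochore motor, and Aurka, a spindle pole kinase, had interactions of -0.57, -0.62 and -0.46. Plk1, a kinase of mitotic entry, had one of -0.36, and Aspm, a spindle pole protein, one of -0.82 (adjusted p = 0.123). For Aspm the LBH589 change was -0.50, and a DMSO change of 0.325 that did not pass entered the interaction as well.

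DNA replication and G1/S genes gave a smaller count, with 4 of 27 falling in LBH589 and 0 changing in DMSO. Their median interaction was -0.27, and 12 were lower at an unadjusted p under 0.05. The shares of all probe sets given for mitosis (1.11%, 0.296% and 5.28%) apply here and to the repair genes below. Mcm10, an initiator of replication, fell by -0.53 and had an interaction of -0.52. Orc1, the largest subunit of the origin recognition complex, fell by -0.63, and Rrm1, a subunit of ribonucleotide reductase, by -0.33. Of 18 DNA repair and checkpoint genes, 4 fell in LBH589 (Brca1, Msh6, Wee1 and Chek1) and 0 changed in DMSO. All 18 interactions lay below 0 (median -0.33), and 9 were lower at an unadjusted p under 0.05. At 6 h, 6 of the 18 were lower in LBH589 than in DMSO and 1 higher, beside 15.9% and 17.7% of all probe sets. At 12 h 14 were lower and 0 higher, beside 18.3% and 18.5%.

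Brca1, a factor of homologous recombination, fell by -0.69 in LBH589. It stood at 8.96, 9.40 and 8.82 in DMSO at 6 h and at 8.85, 9.56 and 9.22 at 12 h. In LBH589 it stood at 9.61, 9.97 and 9.53 at 6 h and at 8.93, 9.47 and 8.64 at 12 h. LBH589 raised it at 6 h (0.64) and the effect at 12 h was -0.20, which did not pass. The interaction was -0.84 ± 0.16 (limma adjusted p = 0.138), and was -0.56, -0.66 and -1.29 by tumour. Fancm, a helicase of the Fanconi pathway, fell by -0.60 in LBH589, with effects of 0.52 at 6 h and -0.11 at 12 h. Gen1, which resolves recombination junctions, fell by -0.68 in LBH589 and had an interaction of -0.80 (adjusted p = 0.116). Wee1, which delays mitotic entry, fell by -0.63 (interaction -0.42).

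Among genes that rose under LBH589 were secreted inflammatory and matrix genes. Of 27 chemokine and cytokine genes, 7 rose in LBH589 and 2 in DMSO, beside 0.582% and 0.208% of all probe sets. The median interaction was 0.26, and 5 were higher at an unadjusted p under 0.05, beside 4.02% of all probe sets. The 2 that rose in DMSO, Ccl5, a chemokine for T cells, and Saa3, an acute phase protein, rose in both courses. Ccl5 rose by 1.33 in DMSO and by 1.89 in LBH589 (interaction 0.56), and Saa3 by 1.22 and 1.98 (interaction 0.77). Neither interaction passed.

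Mmp13, a collagenase, had DMSO values of 7.31, 8.02 and 9.87 at 6 h and 7.92, 9.57 and 10.13 at 12 h. In LBH589 they were 7.09, 8.87 and 9.39 at 6 h and 9.12, 10.91 and 11.44 at 12 h. The tumours differed widely in level, and within each tumour the LBH589 array at 12 h was the highest. It rose by 2.04 in LBH589 (4.11-fold, limma adjusted p = 0.0006979) against a DMSO change of 0.80 that did not pass. The interaction was 1.24 ± 0.29 (limma adjusted p = 0.218), and was 1.42, 0.50 and 1.79 by tumour.

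Il1b, which encodes interleukin 1 beta, was level in DMSO (8.36, 8.57 and 8.40 at 6 h, then 8.44, 8.77 and 8.03). In LBH589 it stood at 8.40, 9.50 and 8.42, then at 9.46, 10.40 and 9.50. The interaction was 1.04 ± 0.23 (limma adjusted p = 0.199). Il6 rose by 1.31 in LBH589, Ptgs2, the inducible cyclooxygenase, by 1.42, and Lcn2, which binds bacterial siderophores, by 1.26. Their interactions were 0.62, 0.71 and 0.996. Of 17 matrix protease and inhibitor genes, 4 rose in LBH589 and 0 in DMSO, beside 0.582% and 0.208% of all probe sets. Their median interaction was 0.18, and 5 were higher at an unadjusted p under 0.05, beside 4.02% of all probe sets. Timp1, an inhibitor of such proteases, rose by 1.07, and Mmp3, stromelysin, by 1.70. Outside that list Serpinb2, an inhibitor of plasminogen activators, rose by 1.44.

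Fibroblast, meningeal and mural markers moved in the same arrays. Of 8 such markers, 7 lay above the 25th percentile on every array. Of the 8, 2 (Dcn and Acta2) rose in LBH589, beside 0.582% of all probe sets. The mean log2 value of the 8 in LBH589 was 7.82, 8.12 and 7.99 at 6 h. It was 7.93, 8.37 and 8.56 at 12 h, higher at 12 h in all 3 tumours. In DMSO it was 7.88, 7.92 and 8.39, then 7.77, 8.26 and 8.48. Their part in the rise of the matrix genes was not tested.

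Other genes rose under LBH589 with a level DMSO course. Rian, an RNA of the imprinted Dlk1 to Dio3 cluster, stood at 7.53, 6.57 and 7.95 in DMSO at 6 h and at 7.19, 6.26 and 8.15 at 12 h. In LBH589 it was at 8.62, 8.18 and 9.87, then at 9.63, 9.03 and 10.87. Its LBH589 effect was 1.54 at 6 h and 2.64 at 12 h, and the interaction was 1.10 ± 0.20 (limma adjusted p = 0.116). Gsta4, a glutathione transferase for lipid aldehydes, had effects of 0.99 and 1.78 (interaction 0.79, adjusted p = 0.116). Thbs2, a matrix glycoprotein, had effects of 0.65 and 1.43 (interaction 0.79, adjusted p = 0.120). Neat1, the RNA scaffold of paraspeckles, rose by 0.97 and Cnn1, calponin of smooth muscle, by 1.04 (interactions 0.85 and 1.29).

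Slc7a11, the cystine transporter, rose by 1.15 in LBH589. Its DMSO values were 9.43, 8.46 and 8.84, then 8.88, 9.31 and 8.72, and its LBH589 values were 8.74, 7.65 and 8.15, then 9.48, 9.39 and 9.14. LBH589 lowered it at 6 h (-0.73), and the effect at 12 h was 0.36, which did not pass. The interaction was 1.09 ± 0.31 (limma adjusted p = 0.325), and was 1.28, 0.89 and 1.11 by tumour. It belongs to the NRF2 and glutathione list, of which 2 of 15 rose in LBH589, beside 0.582% of all probe sets. At an unadjusted p under 0.05, 6 of the 15 were higher, beside 4.02%, and the median interaction was 0.19.

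Dcx, doublecortin of migrating neurons, and Olfr1265 had the lowest adjusted p among negative interactions outside the interferon genes. Dcx fell by -0.49 in LBH589 and its DMSO change was 0.34, so its LBH589 effect went from -0.52 to -1.35 (interaction -0.83 ± 0.13, limma adjusted p = 0.0659). It was -0.77, -0.90 and -0.81 by tumour. Olfr1265, an olfactory receptor gene, had an interaction of -1.16 ± 0.18 (limma adjusted p = 0.0659). On 3 of the 12 arrays it lay below the 25th percentile of all probe sets.

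By size alone, 31 probe sets had an interaction of at least 1 in size, 17 negative and 14 positive, and in all 31 it had the same sign in all 3 tumours. They were chosen by the mean of those 3 values, so agreement in sign is partly built in and the counts are a description. Of the 31, only Rnf213 and Ddx58 passed. Mx2, a negative one, was near the floor in LBH589, as were Irgm1 at both times and Igtp at 6 h. Of the 17 negative ones, 16 had a DMSO change at least 2 times the LBH589 change, and 1, Olfr1265, the reverse. Of the 14 positive ones, 10 had an LBH589 change at least 2 times the DMSO change, 2 (Rny1 and Snord73b) the reverse, and 2 (Hspb1 and Scarna6) neither. Tumour MP567 gave the smallest size in 15 of the 17 negative ones, and was at -0.99 for Eif2ak2 where MP570 was at -2.29.

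**Figure D3:**
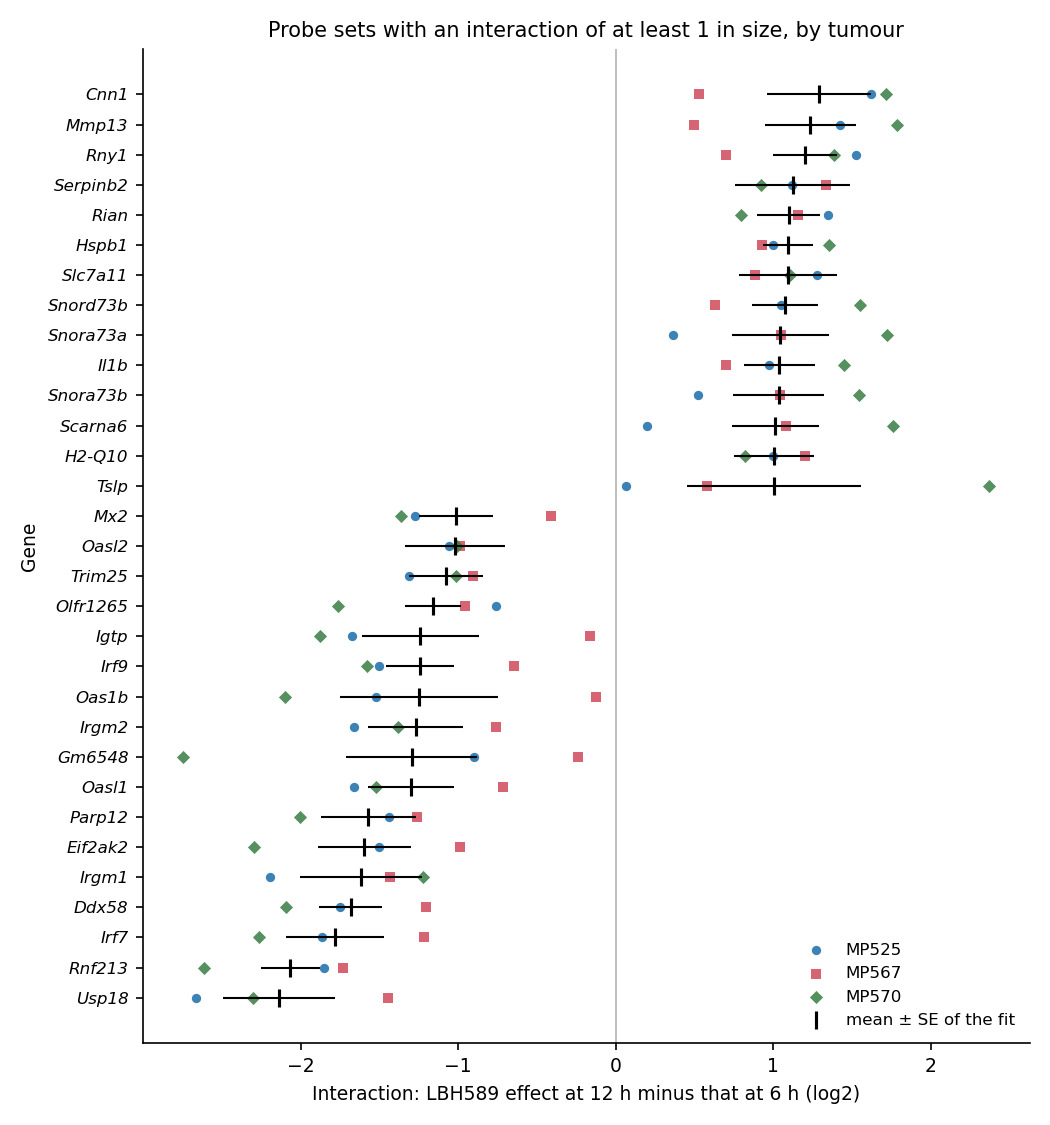
Interaction (LBH589 effect at 12 h minus that at 6 h, log2, horizontal axis) of the 31 probe sets with a size of at least 1 (vertical axis). Coloured points are the 3 tumours, and black bars with lines are the mean and standard error of the limma fit. The 17 negative ones run from -1.01 (Mx2) to -2.14 (Usp18) and the 14 positive ones from 1.01 (Tslp) to 1.29 (Cnn1).

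Of 40 gene lists, 1 held a gene whose interaction passed (Ddx58 among the sensors of nucleic acid), and for 32 the median interaction lay within 0.2 of 0. Among them were FOXO factors and targets (median -0.03 over 26 genes), p53 targets (-0.04 over 17), pro-apoptotic genes (-0.05 over 16), anti-apoptotic genes (0.02 over 13) and histone deacetylases (-0.09 over 11). The signs of the FOXO, p53, cell cycle inhibitor and acetyltransferase medians were not settled, since quantile normalization moved them to -0.00, 0.02, 0.06 and 0.04. Immediate early genes had a median of 0.18, and 4 of 24 were higher at an unadjusted p under 0.05, beside 4.02% of all probe sets. Cholesterol synthesis genes had a median of -0.20 with 6 of 18 lower, and ER stress genes one of -0.20 with 5 of 17 lower, beside 5.28%. Circadian clock genes had a median of -0.22, which was -0.07, 0.03 and -0.41 by tumour.

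**Figure D4:**
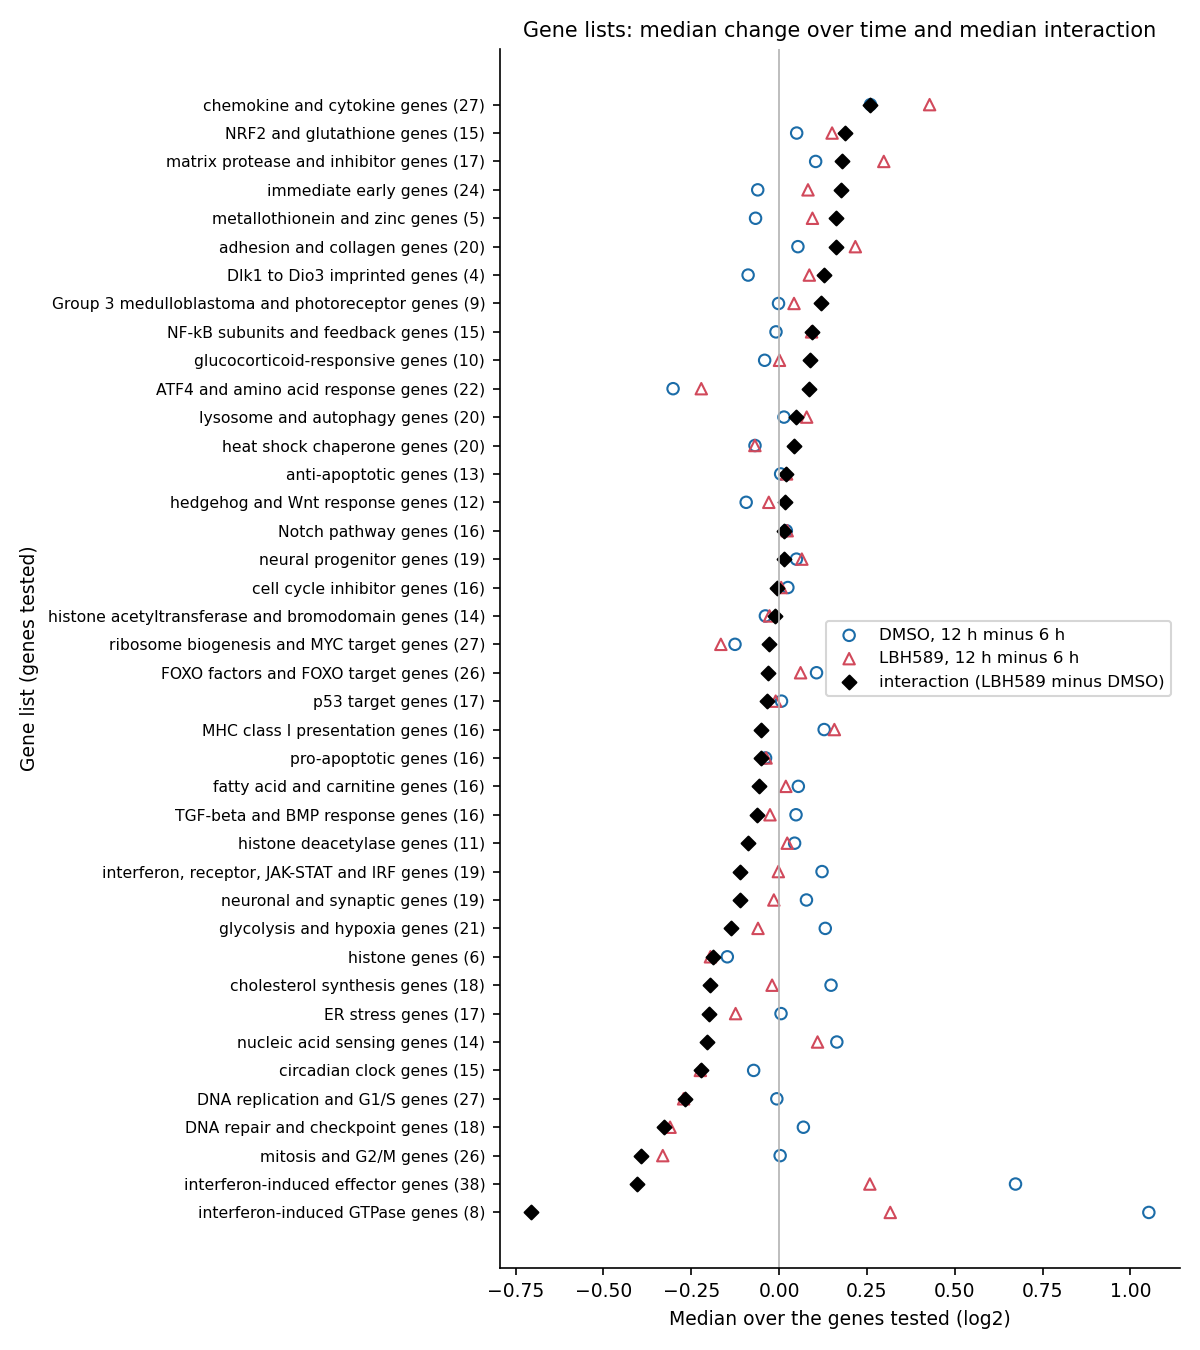
Median over the tested genes of each of 40 lists (vertical axis, number of genes in brackets) of the DMSO change from 6 h to 12 h (circles), the LBH589 change (triangles) and the interaction (diamonds), in log2 units. For the interferon lists the circles lie at 0.67 and 1.05, and for mitosis, replication and repair the triangles lie at -0.33, -0.27 and -0.31 with circles near 0.

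LBH589 differed from DMSO for 6465 probe sets at 6 h (33.6%) and for 7088 at 12 h (36.8%), and 5106 passed at both times, all in the same direction, which is 79.0% of the first and 72.0% of the second. A total of 1359 passed at 6 h alone and 1982 at 12 h alone. Of these, 0 and 1 (Rnf213) had an interaction that passed, so passing at 1 time alone did not show a difference between the times. Of the 5106, 2738 were larger at 12 h and 2368 smaller. Of the genes always named, Foxo1, a transcription factor of the insulin pathway, stood at 7.97, 7.58 and 7.70 in DMSO at 6 h and at 8.17, 7.88 and 7.62 at 12 h. In LBH589 it was at 9.74, 9.30 and 9.22, then at 9.66, 9.31 and 9.23.

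The Foxo1 interaction was -0.16 (95% interval -0.44 to 0.12) beside effects of 1.67 and 1.51, and it was 0.18 for a second, dimmer probe set. That of Cdkn1a, which encodes the cell cycle inhibitor p21, was -0.06 (-0.56 to 0.44) beside effects of 1.76 and 1.70. For Bcl2l11, which encodes the pro-apoptotic BIM, it was -0.21 (-0.51 to 0.09), for Ccnd1, cyclin D1, -0.03 (-0.66 to 0.60), and for Myc, the driver of this model, 0.12 (-0.16 to 0.40). The Myc effects themselves, 0.09 and 0.21, did not pass at either time. Cpt1a, which admits fatty acids to mitochondria, had effects of 2.69 and 3.02 and an interaction of 0.33 (-0.07 to 0.73). These intervals leave room for changes of the effect by up to the bounds given.

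**Figure D5:**
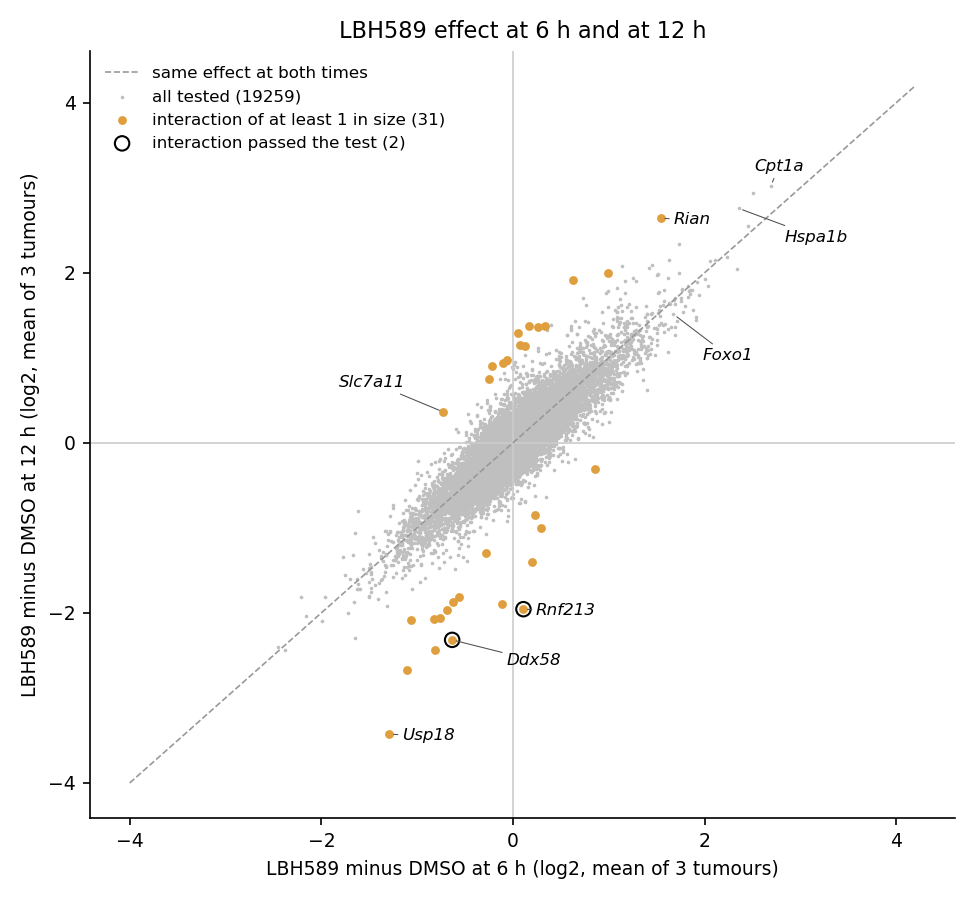
LBH589 minus DMSO at 6 h (horizontal axis) against that at 12 h (vertical axis), log2, mean of 3 tumours, for 19259 probe sets. Orange points have an interaction of at least 1 in size (31), ringed ones passed the test (2), and the dashed line marks equal effects. Foxo1 (1.67 and 1.51) lies at the line, and Rnf213 (0.11 and -1.96) and Ddx58 (-0.63 and -2.32) lie below it.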

How the data were processed

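Total RNA of 12 cultures was hybridised to an Affymetrix whole-transcript array, and the authors deposited 1 log2 value per probe set. That the scale is log2 was inferred from values spanning 1.50 to 14.5. According to the submitters' processing notes the software was Agilent Feature Extraction 10.7.3.1. Steps such as background correction and normalization were not given in the sources used here. Since the medians of the arrays ranged only from 7.10 to 7.21, and correlations of array pairs from 0.965 to 0.991, values were used as deposited. Arrays carry no counts, so their number sets the precision. RefSeq (GRCm38.p6) supplied symbols for 23328 of the probe sets through Entrez numbers, with 193 left as annotated. The 1814 probe sets naming several genes and the 16010 not listed were not used here.

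A probe set was tested if its mean over 12 arrays exceeded 6.00, the mean of the arrays' 25th percentiles. The 19259 that did cover 18185 genes, and 4262 were left out. Group means and a tumour block were fitted with limma 3.58.1 in R 4.3.3 (lmFit, eBayes with a trend, 6 residual degrees of freedom), after tests on simulated data. The block follows from the within-tumour definition. Deviations from group means correlated at 0.451 to 0.808 in 18 same-tumour pairs and at -0.520 to -0.0478 in others. Members and lists were chosen with earlier results of these data known. The naming rule took, by size of the interaction, up to 8 called probe sets per course class and direction, up to 5 called members of each list, and 5 genes always. Lists use the brightest probe set of a gene, and 671 of 749 list symbols were on the array. Alternatives changed the block, normalization, filter, probe set choice and variance model, and left out each tumour and each array.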

Additional observations from a re-analysis of the deposited data

Results flagged for a closer look

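The effect of LBH589 differed between 6 h and 12 h by the interaction test for 2 probe sets. For Rnf213 it was lower at 12 h by an interaction of -2.07, and for Ddx58 by one of -1.68, in 3 of 3 tumours each. Both followed a rise in DMSO and not a fall under LBH589.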

How the results depend on the processing

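Rnf213 and Ddx58 kept their interaction call with a random tumour block, quantile normalization, median centring, each filter tried, 1 probe set per gene, no mean-variance trend and a robust spread. With no replicate block 0 probe sets passed in limma (0 lower, 0 of the solvent course, and 513 at an unadjusted p under 0.05), the DMSO course had 4 calls, the LBH589 course 0 (1454 unadjusted), and LBH589 against DMSO 3005 at 6 h and 3444 at 12 h. The random block gave 23 and 26 calls in the DMSO and LBH589 courses. Quantile normalization gave 9 interactions (6 higher), 4 in the solvent course and 5 in the drug course, Hspb1, Rny1, Gsta4 and Olfr1265 among them, and turned the Ccnd1 interaction to 0.0349. The robust spread gave 6 (2 higher, 4 lower, 3 in the drug course), with Dcx. The filter at the 50th percentile gave 536 LBH589 course calls, and no trend gave 29 and 145 in the DMSO and LBH589 courses. Leaving out 1 tumour or array gave 0 to 11 interaction calls (0 to 2 higher, 0 to 10 lower, 0 to 10 in the solvent course, 0 to 1 in the drug course and 0 to 1 in both), with the 0 calls without MP525, where 1691 had an unadjusted p under 0.05. It gave 13 to 57 DMSO course calls and 7 to 821 LBH589 course calls. The 11 came without the DMSO 12 h array of MP567 and were mostly interferon genes, Usp18, Irf7, Irf9, Eif2ak2 and Parp12 among them. Over these the Ccnd1 interaction ran from -0.336 to 0.2003 and that of Cdkn1a from -0.2528 to 0.137, so neither sign is settled.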
